A study of Mus musculus with 2 samples.

Results

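The Wnt ligands, their receptors and their secreted antagonists comprised 42 genes, out of 20807 protein-coding genes on the mouse autosomes. They were chosen by name, as all 19 Wnt ligands, the 10 Frizzled receptors (Fzd1 to Fzd10), the 4 co-receptors Lrp5, Lrp6, Ror1 and Ror2, and 9 antagonists of the Sfrp, Frzb and Dkk families (the rule that names them uses no measured value). All 42 were found in the GENCODE annotation. Open chromatin was taken from each gene body and from 50 kb on either side of it, which gave 112 of the 32388 open chromatin regions of the series.

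ATAC-seq, in which the Tn5 transposase cuts accessible DNA and tags it for sequencing, was performed on femoral growth plates of E15.5 FVBNJ (FVB) mouse embryos, for which the labels name no engineered allele and no treatment. The proximal end and the distal end of the right and left femurs were dissected away from the bony shaft and pooled separately by litter, with 8 animals per pool on average, and 50000 cells entered each library. The 2 biological replicates of an end had been combined by the authors into 1 list of reproducible peaks, 28257 for the proximal femur and 27958 for the distal femur, so no value below carries a replicate error and differences between the ends are differences between 2 lists, with no test. The lists give positions without heights or read counts, the depth behind a peak is therefore unknown, and the 95% Wilson intervals given for shares cover counting error only. The cells are labelled chondrocytes, but the dissected ends also held perichondrium, and which cells carried a peak cannot be read from a pooled sample. Of 11 chondrocyte marker genes, 5 had a promoter peak in the proximal list and 8 in the distal list. Matn1, Ihh and Col10a1 had none. Among all protein-coding genes the shares were 56.4% (proximal), 57.7% (distal) and 59.1% (either list). Of the osteoblast and muscle markers, 0 of 5 each had one in either list. With so few markers, these counts do not tell which cells made up the samples. Of 5 markers each, 2 of endothelium, 2 of blood and 2 of epithelium had a promoter peak in either list, and the part of such cells in the results was not tested.

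Wnt proteins are secreted lipid-modified glycoproteins that bind Frizzled receptors on nearby cells. With Lrp5 or Lrp6 as co-receptor they stabilise beta-catenin, which activates genes together with TCF/LEF factors, and with Ror1 or Ror2 they act through pathways that direct cell shape and polarity. In the growth plate, Wnt signals are known to order chondrocyte columns, to time maturation and to keep cartilage and bone fates apart, while Sfrp proteins and Frzb bind the ligands and Dkk1, Dkk2 and Dkk4 act on Lrp5 and Lrp6.

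The classes were first compared by open chromatin at their own promoters. A gene was counted when the nearest edge of a peak lay within 1 kb of a start site of any of its transcripts. In either list 20 of the 42 genes (47.6%, interval 33.4 to 62.3) had such a peak, against 59.1% of all protein-coding genes. The classes lay on both sides of that background. The Frizzled receptors had a promoter peak in 9 of 10 genes (90%, 59.6 to 98.2), the co-receptors in 3 of 4, the secreted antagonists in 4 of 9 (44.4%, 18.9 to 73.3) and the ligands in 4 of 19 (21.1%, 8.51 to 43.3). The interval of the ligands lay below the background share and that of the Frizzled receptors just above it, while those of the co-receptors and the antagonists included it. In the proximal list alone, the interval of the Frizzled receptors (8 of 10, 80%, 49 to 94.3) included the background of 56.4%. The ligand count fell to 2 with a limit of 500 bp from the start site, and the antagonist count fell to 1 when peaks below the median width were left out. By end, the count was 16 of 42 in the proximal list (38.1%), where 56.4% of all genes had a promoter peak, and 20 of 42 in the distal list, where 57.7% had one.

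**Figure D1:**
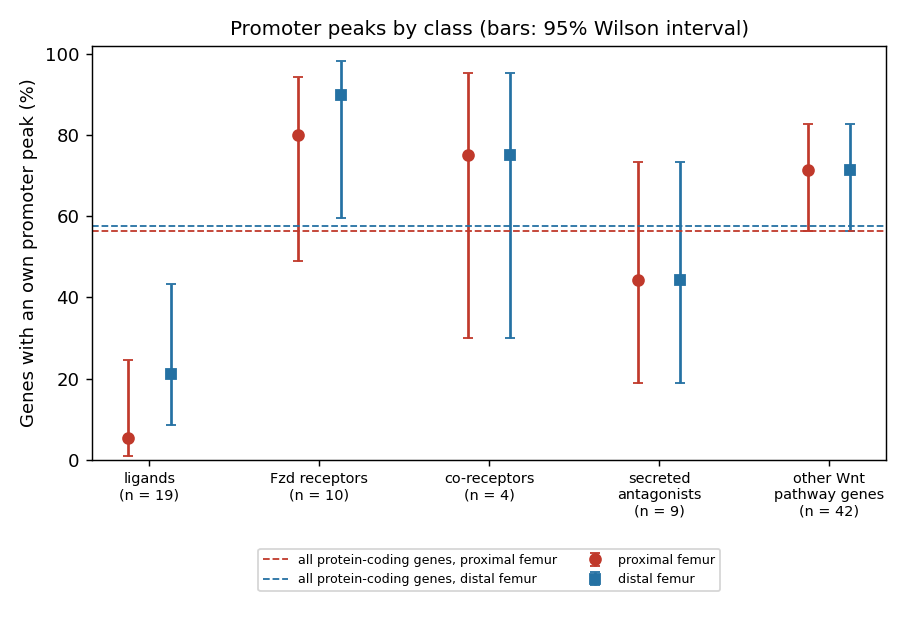
Share of genes with a peak at their own promoter (y axis, percent) in each class (x axis, with the number of genes), for the proximal femur (circles) and the distal femur (squares). Bars are 95% Wilson intervals, which cover counting error only, and dashed lines show all 20807 protein-coding genes, so that the ligands lie below the lines (5.26% and 21.1%) and the Frizzled receptors above them (80% and 90%), with a proximal interval (49 to 94.3) that includes its line.

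Among the ligands, Wnt2, Wnt2b, Wnt6 and Wnt16 had a promoter peak. The promoters of the other 15 held none in either list, namely Wnt1, Wnt3, Wnt3a, Wnt4, Wnt5a, Wnt5b, Wnt7a, Wnt7b, Wnt8a, Wnt8b, Wnt9a, Wnt9b, Wnt10a, Wnt10b and Wnt11. This set included Wnt5a and Wnt5b, ligands of the Ror receptors that act in long bone growth, and Wnt4 and Wnt9a, which are known from developing joints. A list entry requires a call that was reproducible between replicates, so a promoter without one may still have held a weaker or less reproducible peak, and expression was not measured here.

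Of the 4 ligand promoter regions, 2 were called in both lists and 2 in the distal list only. Wnt2b, which acts in limb and eye development, had a region of 795 bp that covered a start site and was called in the distal list only (chr3:104961259-104962053, over the first exon). Wnt16, a ligand linked to cortical bone thickness, had a distal-list region of 1589 bp over its start (chr6:22287953-22289541), the widest region near any ligand, and no proximal peak there. Wnt6 had a region in both lists inside its gene, 664 bp in the distal list with its edge 994 bp from the start site, and 429 bp in the proximal list with its edge past 1 kb. Its place among the distal-list promoters therefore rested on the limit of 1 kb. Wnt2 had peaks of 560 bp (proximal) and 813 bp (distal) upstream of the gene, whose region began 932 bp from its start site and did not cover it.

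Over all classes, 4 genes had a promoter peak in the distal list only, which were Wnt2b, Wnt6, Wnt16 and Fzd6 (4 of 42, 9.52%, interval 3.77 to 22.1), against 2.77% of all genes. None of the 42 had one in the proximal list only, against 1.37% of all genes, with an interval that reached 8.38%. Without Wnt6, whose region was called in both lists, 3 of 42 genes remained (7.14%, interval 2.46 to 19). That interval included 2.77%. By region, 3 promoter regions of 21 were single-end (14.3%, 4.98 to 34.6), each of them distal-only, and 18 were called at both ends. Among all regions at start sites 12.2% were single-end, at either end, which lay within that interval. Fzd6, a receptor known for planar polarity, had its 914 bp region at chr15:39005761-39006674, across the first exon and within 1 kb of the start of the non-coding gene Gm26704 as well.

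The bases just upstream of the 3 genes with distal-only promoter regions are shown from within each region, because these are the promoters at which the lists of the ends differed. The sequences run 5′ to 3′ on the strand of the gene in GRCm38 (mm10), end at the base before the annotated 5′ end, and have each CG dinucleotide in capitals. They lie at chr3:104961922-104962053 (minus strand), chr6:22288027-22288226 (plus strand) and chr15:39005834-39006033 (plus strand).
Wnt2b: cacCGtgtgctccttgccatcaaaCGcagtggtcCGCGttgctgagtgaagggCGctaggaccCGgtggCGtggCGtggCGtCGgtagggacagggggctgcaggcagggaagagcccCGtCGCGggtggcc
Wnt16: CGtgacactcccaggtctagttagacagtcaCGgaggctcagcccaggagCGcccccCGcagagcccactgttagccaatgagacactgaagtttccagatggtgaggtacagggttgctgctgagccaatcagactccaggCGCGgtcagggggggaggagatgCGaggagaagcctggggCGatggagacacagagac
Fzd6: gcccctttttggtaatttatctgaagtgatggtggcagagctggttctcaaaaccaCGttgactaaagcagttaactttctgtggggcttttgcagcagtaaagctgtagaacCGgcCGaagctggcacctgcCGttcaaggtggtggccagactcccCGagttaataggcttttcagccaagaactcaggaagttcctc
The Wnt2b stretch holds 13 CG dinucleotides in 132 bases with 69.7% GC, the Wnt16 stretch 8 in 200 bases with 61% GC, and the Fzd6 stretch 5 in 200 bases with 50% GC. The Fzd6 promoter scored for CpG content below had 76.3% GC and lay at another of its 4 start sites. None of the 3 stretches holds the TCF/LEF, AP-1, RUNX or SOX letters that were searched in the distal regions below.

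Among the Frizzled receptors, all but Fzd10 had an open promoter, and 8 of the 9 had it at both ends. The widest regions lay over Fzd1 (1840 bp proximal, 1783 bp distal) and Fzd4 (1519 bp and 1526 bp), the latter a receptor of retinal vessel growth whose region also lay at the start of the neighbouring gene Tmem135. Fzd8 had 2 promoter regions with 1704 bp of proximal and 1495 bp of distal peaks in all. All of these promoters were called at both ends. Fzd7 (1187 bp proximal, 1299 bp distal), Fzd3 (949 and 916 bp), Fzd5 (949 and 1036 bp) and Fzd9 (598 and 494 bp) also differed little, and Fzd2 was 682 bp wide in the proximal and 1095 bp in the distal list. The width of a called peak is not a measure of how open the site was.

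Among the co-receptors, Lrp6, Ror1 and Ror2 had promoter peaks in both lists. The widths were 1014 bp proximal and 1103 bp distal for Lrp6, 986 bp and 1049 bp for Ror1, and 781 bp and 722 bp for Ror2, a receptor of Wnt5a that is known for its role in digit and long bone growth. Lrp5, a co-receptor known for its effect on bone mass, had none. Its nearest region lay 4757 bp from a start site, in an intron, and was called in both lists.

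Among the antagonists, Sfrp1, Sfrp4, Frzb and Dkk2 had promoter peaks, each in both lists. Frzb, an Sfrp-type antagonist first isolated from cartilage, had peaks of 596 bp (proximal) and 561 bp (distal) over its start site. Sfrp1 had 661 bp and 920 bp, Sfrp4 had 623 bp and 531 bp, and Dkk2 had 624 bp in each list in a region that stopped 903 bp short of its start site. Sfrp2, Sfrp5, Dkk1, Dkk3 and Dkk4 had no promoter peak. Sfrp2 had a region called in both lists 1735 bp upstream of a start site (chr3:83763935-83764586), outside the limit of 1 kb.

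**Figure D2:**
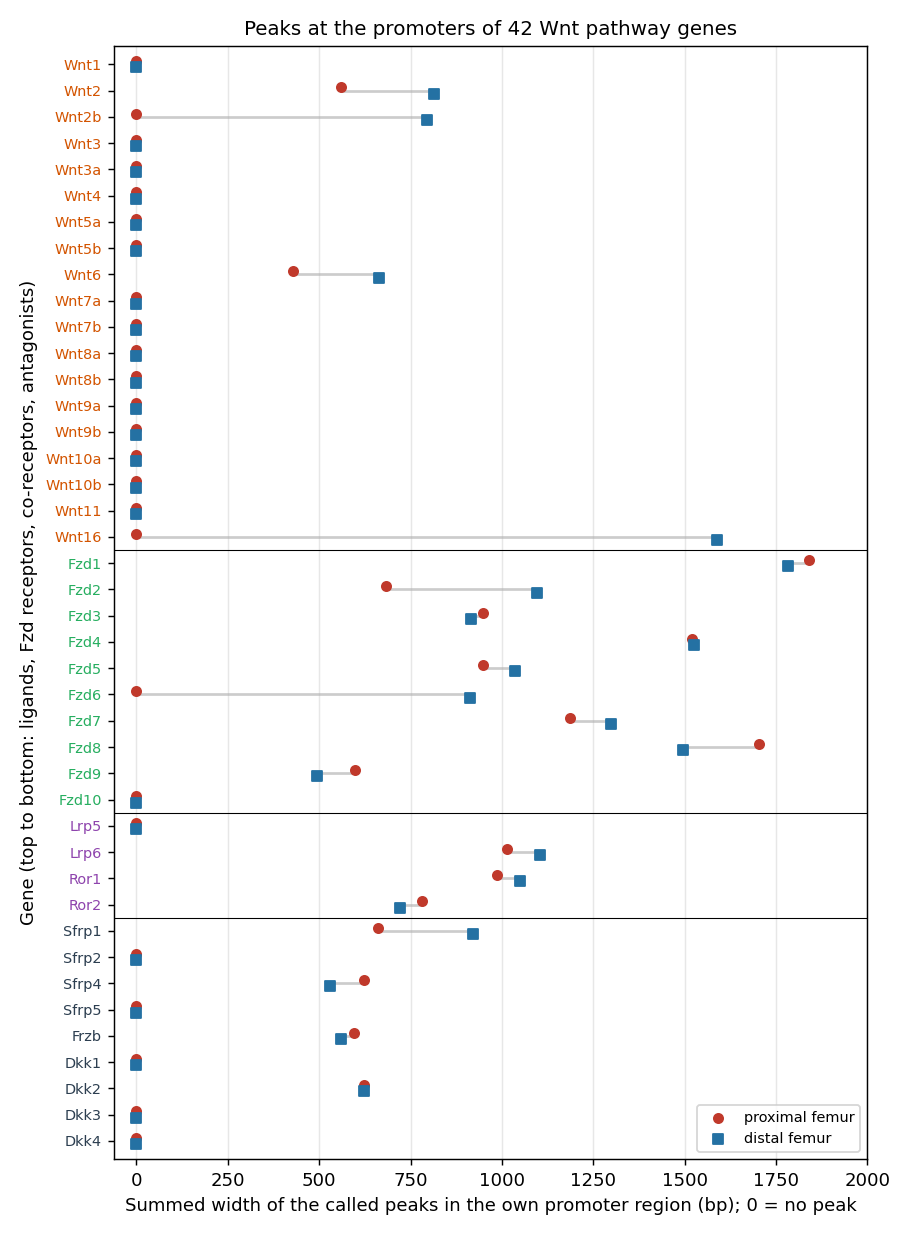
Summed width in bp of the peaks called in the own promoter region of each of the 42 genes (y axis, grouped by class), in the proximal femur (red circles) and the distal femur (blue squares), with 0 for no peak. Wnt2b, Wnt16 and Fzd6 are at 0 for the proximal femur only, and the proximal peak of Wnt6 (429 bp) is drawn although its edge lies past 1 kb from the start site.

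In the 18 promoter regions with 1 peak in each list, the distal peak was the wider one in 10 (55.6%, interval 33.7 to 75.4), and the median widths were 804 bp proximal and 918 bp distal. Over all regions at start sites in the series the distal peak was the wider one in 45.2%, with medians of 924 bp and 909 bp. The interval of the 18 regions included that share.

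Promoters rich in CpG dinucleotides are open in many cell types, so the promoter peaks were also read against promoter composition. A promoter was called CpG-rich when the 250 bases before and 50 bases after a start site had an observed over expected CpG ratio of at least 0.6 and at least 55% GC, with the start of most CpG dinucleotides taken for each gene. By this rule 30 of the 42 genes were CpG-rich (71.4%), against 52.5% of all genes. Of the CpG-rich genes of the series 88.2% had a promoter peak in either list, and of the other genes 27%.

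The ligands stood apart from that background. Of the 14 ligands with a CpG-rich promoter only 2 had a peak, Wnt2b and Wnt6, and 12 had none. The ratio was 1.21 for Wnt5a, 1.18 for Wnt11, 1.12 for Wnt9a and 1.07 for Wnt5b, all without a promoter peak, while Fzd3 with 1.07 and Lrp6 with 1.14 had one. In contrast, all 8 Frizzled receptors with a CpG-rich promoter had a peak, which was close to the 88.2% of all CpG-rich genes. Against genes of this kind the Frizzled receptors therefore did not stand out. Of the co-receptors with a CpG-rich promoter 2 of 3 had a peak (not Lrp5, with a ratio of 0.83). Of such antagonists 3 of 5 had one (not Sfrp2, 0.95, and Sfrp5, 0.62). Over the series 27% of the genes that were not CpG-rich had a promoter peak. Of the 42 genes, those outside the 30 CpG-rich ones had a peak in 5 cases, namely Wnt2, Wnt16, Fzd2, Ror1 and Dkk2. Ror1 had the lowest ratio of these, 0.38.

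**Figure D3:**
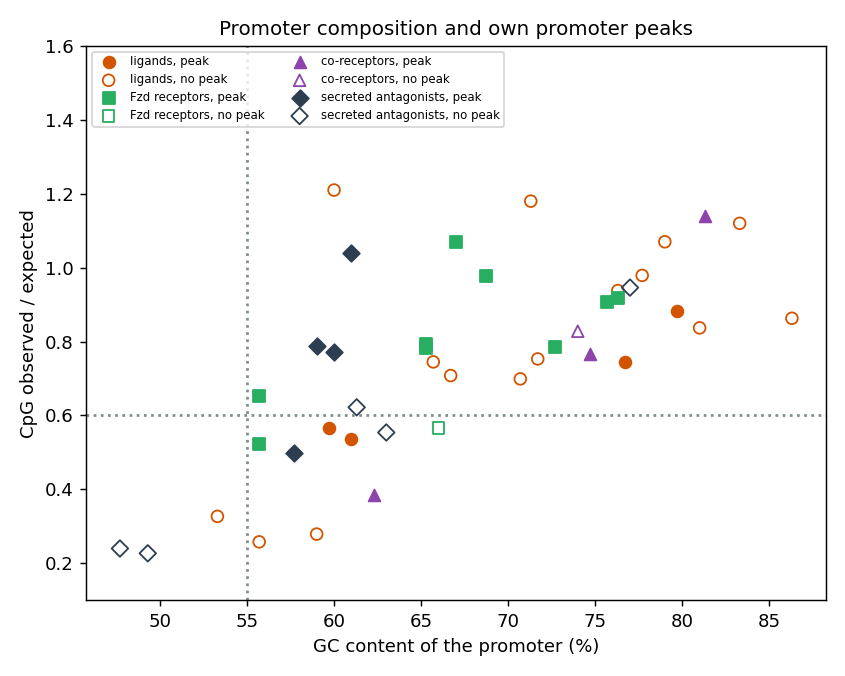
GC content (x axis, percent) and observed over expected CpG ratio (y axis) of the promoter of each of the 42 genes, with filled symbols for genes with a promoter peak in either list and open symbols for genes without. Dotted lines mark 55% GC and a ratio of 0.6, and the field above both holds 12 open ligand circles beside 8 filled Frizzled squares.

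Several Wnt ligand genes lie side by side in the genome. The 4 adjacent pairs Wnt1 with Wnt10b, Wnt6 with Wnt10a, Wnt3 with Wnt9b and Wnt3a with Wnt9a lay between 6.19 and 24.3 kb apart, and of these 8 genes only Wnt6 had a promoter peak. Their surroundings differed. Around Wnt1 and Wnt10b there were 3 regions and around Wnt3a and Wnt9a 2, all of them at start sites of other genes. Wnt3 with Wnt9b had 1 distal region and Wnt6 with Wnt10a had 2. Wnt6 and Wnt10a each had 3 regions of any kind within 50 kb, and the median over all genes was also 3.

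Regions away from promoters were compared next. A distal region had no annotated start site of any gene within 1 kb, and regions at the start sites of other genes were counted apart. The 112 regions comprised 21 at the own promoters, 32 at other start sites and 59 distal ones. A distal region lay within reach of 29 of the 42 genes (69%, interval 54 to 80.9), against 55.9% of all genes, and the median was 1 distal region per gene both for the 42 genes and for all genes. Per 100 kb of sequence searched, the median was 0.931 for the 42 genes and 0.654 for all genes. By class, 11 of 19 ligands, 8 of 10 Frizzled receptors, 4 of 4 co-receptors and 6 of 9 antagonists had at least 1 distal region.

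No region of any kind lay within 50 kb of Wnt3, Wnt5a, Wnt9a and Dkk3 (4 of 42, 9.52%), against 13.6% of all genes. Their nearest regions were 75898 bp from a start site of Wnt3, 78243 bp for Wnt9a, 66358 bp for Dkk3 and 127518 bp for Wnt5a. That of Wnt5a was called in the proximal list only.

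**Figure D4:**
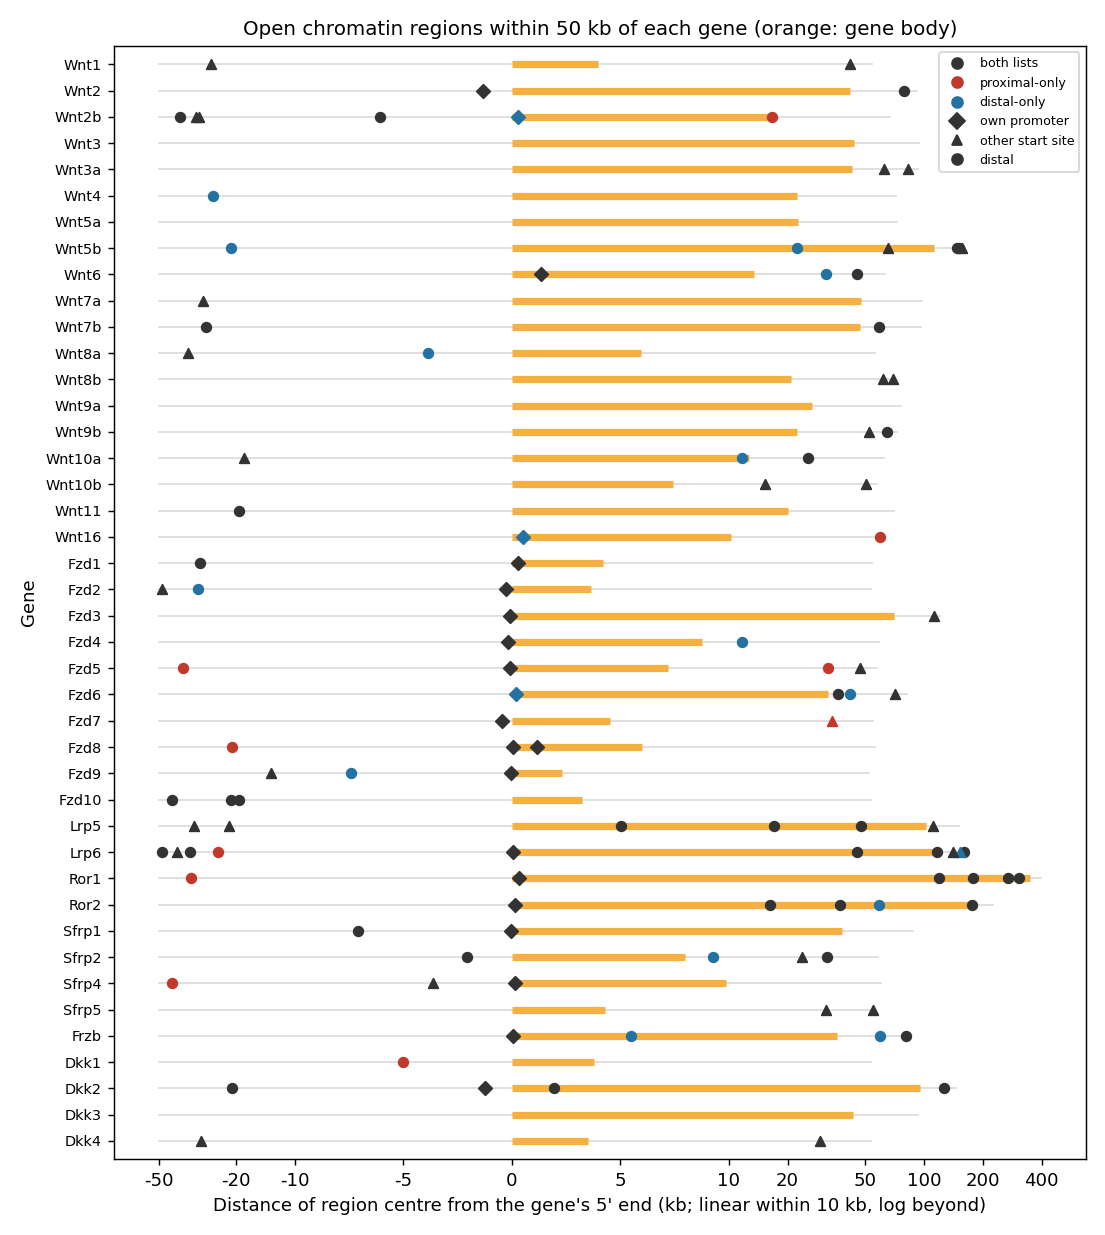
Each open chromatin region within 50 kb of the 42 genes, placed by the distance of its centre from the 5' end of the gene (x axis in kb, linear within 10 kb and logarithmic beyond). Black symbols were called in both lists, red in the proximal and blue in the distal list only. Diamonds are own promoters, triangles other start sites and circles distal regions, and orange bars are gene bodies. Wnt3, Wnt5a, Wnt9a and Dkk3 have no symbol, and Lrp6 has the most with 10.

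The co-receptors held the most distal regions, with a median of 4.5 per gene, but their windows were also long, from 202 to 449 kb against a median of 118 kb over all genes. Per 100 kb their median was 1.47. Lrp6 had 6 distal regions, 5 of them in both lists, and 97.2% of all genes had fewer. Ror1 had 5, of which the 4 called in both lists lay inside the gene in introns, and Ror2 had 4, all inside the gene. Lrp5 had 3, all in introns and in both lists.

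Among the ligands, Wnt5b had the most distal regions, 4, although its promoter was without a peak. Its window was also the longest of the class, 212 kb against a class median of 122 kb. Per 100 kb Wnt5b had 1.89 distal regions, below 2.57 for Wnt2b. The 2 Wnt5b regions called in both lists lay downstream within the neighbouring gene Adipor2. The others, a region of 901 bp in a Wnt5b intron and one of 671 bp with its edge 20955 bp upstream, were distal-only. Wnt2b had 3, of which 2 were upstream in both lists and 1 over its last exon was proximal-only. Wnt7b had 2, both called in both lists. Among the Frizzled receptors, Fzd10 had 3 upstream regions in both lists, and it was the member of its class without a promoter peak. Fzd5 and Fzd6 had 2 each. Among the antagonists, Sfrp2, Frzb and Dkk2 had 3 each. Those of Dkk2 were all in both lists, whereas 1 of the 3 at Sfrp2 and 2 of the 3 at Frzb were distal-only.

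Of the 61 pairs of a gene and a distal region, 24 had the region upstream of the gene, 18 inside it and 19 downstream. Of the 59 distal regions, 34 lay outside any protein-coding gene body. These counts describe the layout only and were not set against all distal regions of the series. A region inside or beside another gene cannot be assigned to a Wnt gene by position alone, and 4 of the 112 regions were within reach of more than 1 of the 42 genes.

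Regions called at 1 femur end only were then counted. Of the 112 regions, 85 were called in both lists, 10 in the proximal list only and 17 in the distal list only. Single-end regions were thus 27 of 112 (24.1%, interval 17.1 to 32.8), against 8753 of 32388 in the whole series. Over that series the paper counted more proximal-specific than distal-specific peaks, and the opposite order here was not tested. The share of single-end regions depended on the kind of region. Among distal regions 22 of 59 were single-end (37.3%, 26.1 to 50), against 38% of all distal regions. By class it was 7 of 12 distal regions for the Frizzled receptors (58.3%, 32 to 80.7), 7 of 17 for the ligands (41.2%, 21.6 to 64), 5 of 12 for the antagonists (41.7%, 19.3 to 68) and 3 of 18 for the co-receptors (16.7%, 5.84 to 39.2). The Frizzled receptors thus had the highest share and the co-receptors the lowest, and the 4 intervals each included 38%. Among own promoter regions it was 3 of 21 (14.3%, 4.98 to 34.6) and among regions at other start sites 2 of 32 (6.25%, 1.73 to 20.1), against 12.2% of all regions at start sites. Each background share lay within the interval over all 4 classes, so a difference in single-end regions was not detectable with this number of regions.

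**Figure D5:**
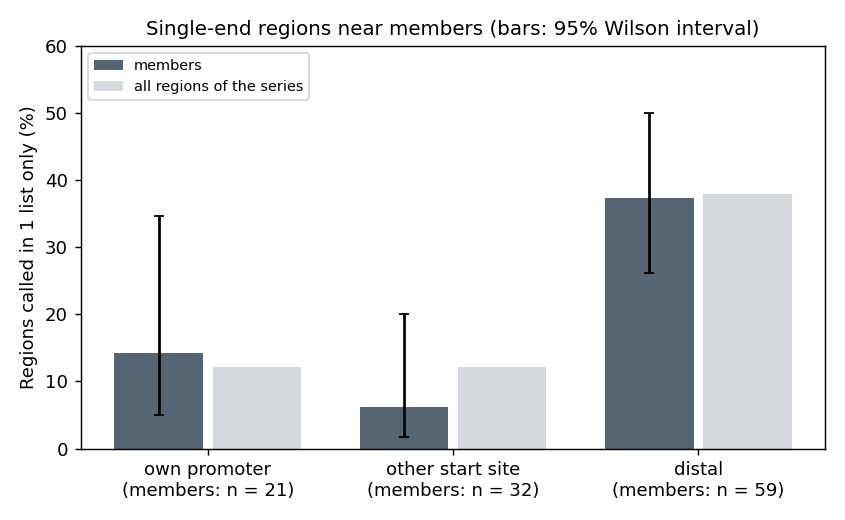
Share of regions called in 1 list only (y axis, percent) among own promoter regions, regions at other start sites and distal regions (x axis). Dark bars are regions near the 42 genes with 95% Wilson intervals, light bars all regions of the series of the same kind (start sites or distal), and the light bars lie within the intervals in all 3 groups.

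By gene, a proximal-only region lay near 9 of the 42 genes (21.4%), against 24.6% of all genes, and a distal-only region near 15 (35.7%), against 28.1%. The intervals, 11.7 to 35.9 and 23 to 50.8, included these backgrounds. Single-end regions were narrower than shared ones, with medians of 522 bp against 705 bp for the distal regions of the 42 genes and 491 bp against 672 bp over the series.

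The proximal-only regions lay near Wnt2b, Wnt16, Fzd5, Fzd7, Fzd8, Lrp6, Ror1, Sfrp4 and Dkk1. Both distal regions of Fzd5, a receptor needed in vascular and eye development, were proximal-only, one of 395 bp in an intron of Ccnyl1 and one of 410 bp upstream. The only region near Dkk1, the antagonist that blocks Lrp5 and Lrp6 and limits limb and head Wnt signalling, was proximal-only as well, 523 bp wide and 4759 bp upstream of its start site (chr19:30554424-30554946). Ror1 had one of 632 bp, Fzd8 one of 724 bp, Lrp6 one of 504 bp and Sfrp4 one of 490 bp, all upstream. That near Fzd7, 655 bp wide, lay at the start site of Gm973.

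The distal-only regions lay near Wnt2b, Wnt4, Wnt5b, Wnt6, Wnt8a, Wnt10a, Wnt16, Fzd2, Fzd4, Fzd6, Fzd9, Lrp6, Ror2, Sfrp2 and Frzb. The only region near Wnt4, 629 bp wide and 26052 bp upstream, was one of them (chr4:137250809-137251437). At Frzb they were 419 bp wide in an intron and 630 bp downstream of the gene, and at Sfrp2 the region was 521 bp wide just downstream of the gene. Wnt8a had one of 527 bp, Fzd2 of 283 bp, Fzd4 of 520 bp, Fzd6 of 559 bp, Fzd9 of 749 bp and Ror2 of 325 bp. A region of 485 bp over the last part of Wnt10a, in an exon, was shared by Wnt6 and Wnt10a, and Lrp6 had one of 324 bp at the start site of Bcl2l14. Wnt2b, Wnt16 and Lrp6 were the genes with single-end regions of both kinds. At Wnt16 the promoter was called in the distal list and a region of 973 bp in an intron of Fam3c, 58478 bp from a Wnt16 start site, in the proximal list, so that no region near this gene was shared.

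Sequences of the widest distal regions are shown, for the ligands, the co-receptors and the antagonists among regions called in both lists. The widest of each single-end kind are shown as well. They serve as examples, and single stretches from different loci allow no comparison of shared with single-end regions. Each stretch is the central 200 bp of the region on the plus strand of GRCm38, at chr7:98815579-98815778 (Wnt11), chr6:134521668-134521867 (Lrp6), chr2:80366930-80367129 (Frzb), chr6:22347726-22347925 (Wnt16, proximal-only) and chr6:119521901-119522100 (Wnt5b, distal-only). Capitals mark a tRNA gene at Wnt11, RUNX matches at Lrp6 and Wnt16 and an AP-1 match at Wnt5b, and the Frzb stretch has none.
Wnt11: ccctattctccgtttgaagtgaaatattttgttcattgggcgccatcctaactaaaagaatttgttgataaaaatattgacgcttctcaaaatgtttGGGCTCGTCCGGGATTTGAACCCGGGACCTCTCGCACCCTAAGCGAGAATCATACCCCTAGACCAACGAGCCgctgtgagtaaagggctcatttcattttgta
Lrp6: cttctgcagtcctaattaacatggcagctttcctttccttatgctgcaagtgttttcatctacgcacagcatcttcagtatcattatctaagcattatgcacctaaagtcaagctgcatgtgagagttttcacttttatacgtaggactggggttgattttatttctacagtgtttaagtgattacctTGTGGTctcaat
Frzb: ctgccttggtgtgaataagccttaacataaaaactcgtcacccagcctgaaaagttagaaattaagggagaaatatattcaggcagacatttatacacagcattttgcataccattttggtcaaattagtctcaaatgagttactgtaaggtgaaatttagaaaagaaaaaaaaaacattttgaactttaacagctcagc
Wnt16: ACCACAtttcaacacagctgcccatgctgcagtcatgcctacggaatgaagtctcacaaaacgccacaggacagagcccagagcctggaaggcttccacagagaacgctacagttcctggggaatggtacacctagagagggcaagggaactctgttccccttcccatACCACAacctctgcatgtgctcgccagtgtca
Wnt5b: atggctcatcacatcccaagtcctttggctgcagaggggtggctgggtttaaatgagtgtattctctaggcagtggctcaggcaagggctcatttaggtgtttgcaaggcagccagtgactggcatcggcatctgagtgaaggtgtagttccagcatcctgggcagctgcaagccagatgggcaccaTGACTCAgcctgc

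The Wnt11 region, 1517 bp wide and the only one within reach of that gene, was the widest distal region of the 42 genes. It lay 18676 bp upstream of a start site and held 2 tRNA genes of the RefSeq annotation, n-TPagg7 and n-TPtgg8, of which the first is in capitals above. A second distal region, downstream of Wnt6 and Wnt10a (chr1:74816550-74817502), held the tRNA gene n-TGgcc3. These were 2 of 59 distal regions, against 0.457% of all distal regions of the series, a difference that rests on a count of 2 and was not tested. Of the 59 regions, 6 (10.2%, interval 4.74 to 20.5) had a start site of the RefSeq annotation within 1 kb. Over all distal regions the share was 4.81%, which that interval included. Among the 6 were the only regions of Wnt4 and Wnt11 and a region each of Lrp6, Sfrp1 and Fzd6. For these regions the name distal rests on the annotation used.

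Motif letters were searched on both strands in the central 200 bp of the 59 distal regions. TCF/LEF (CTTTGAT or CTTTGAA), the site of the factors that work with beta-catenin, was found in 1 region (1.69%, interval 0.3 to 9), upstream of Lrp6 in the gene Mansc1, against 6.74% of all distal regions. Over the whole width of the regions it was found in 12 of 59 (20.3%), against 20.8%, so that the low share held in the central bases alone and its interval there included the background. AP-1 (TGAGTCA or TGACTCA) was found in 15 (25.4%, 16.1 to 37.8), against 30.4%, and RUNX (ACCACA), the site of factors of chondrocyte maturation and bone, in 12 (20.3%, 12 to 32.3), against 18.1%. SOX (ACAATGG), a site of Sox9 and its relatives in cartilage, was found in 1 region (1.69%), against 1.33%. All 4 intervals included the background. The median GC content of the 59 regions was 49.9%, against 47.2% over the series. A match is a description of the letters and not a bound site.

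Other genes of the pathway were counted from a second list of 42, which was chosen with earlier results of these data known. It held secreted modulators, R-spondins and their Lgr receptors, cytoplasmic components and nuclear factors. Of these, 33 had a promoter peak in either list (78.6%, interval 64.1 to 88.3), against 59.1% of all genes and 20 of the 42 ligands, receptors and antagonists. In each list the count was 30 (71.4%, 56.4 to 82.8), against 56.4% of all genes in the proximal and 57.7% in the distal list. In this second list 35 of 42 genes had a CpG-rich promoter (83.3%), and 28 of these 35 had a promoter peak, against 88.2% of all CpG-rich genes. The peaks included those of Ctnnb1, which encodes beta-catenin, Axin2, Lef1, the Wnt secretion factor Wls and the antagonist Wif1. The 9 without a promoter peak were Rspo1, Rspo4, Kremen2, Sost, Notum, Ptk7, Dvl2, Tcf7 and Celsr1. The ligands had the lowest share of the pathway classes counted, 4 of 19 in either list and 1 of 19, Wnt2, in the proximal list.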

How the data were processed

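The deposited peak lists, 1 per femur end, hold the chromosome, start and end of each peak, as coordinates without a score or signal. Per the labels and the study's methods, the authors mapped their reads with Bowtie2 2.2.8 (genome build mm10), discarded duplicates, ran MACS2 (2.1.1 in the submitters' processing notes) and retained those peaks that both replicates gave at an irreproducible discovery rate (IDR) below 0.05. No peak lies on a sex chromosome.

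Here peaks of both lists that overlapped by 1 bp or more were merged into regions and set against GRCm38 and GENCODE mouse release 21 with pysam 0.24.0 in Python 3.11.15, and figures were drawn with matplotlib 3.10.9. Overlap counting was tested on simulated data. All 42 genes were accounted for, and values were given for genes without a promoter peak, with single-end regions, with a promoter peak in 1 list, and for the 3 of each class with the most distal regions. The members and lists were chosen with earlier results of these data known. No tests were possible with 1 list per end. Alternatives were other start site distances, windows, overlaps, peak widths and start sites. Reads were not analysed here. The sequence of 1 further region is not reported here.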

Additional observations from a re-analysis of the deposited data

How the results depend on the processing

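Over all alternatives between 15 and 21 of the 42 genes had a promoter peak, as did 8 or 9 of the Frizzled receptors, whereas the ligand and antagonist counts moved. RefSeq start sites, an alternative chosen after seeing the data, left the counts at 20 genes, 4 ligands, 9 Frizzled receptors and 4 antagonists. At 500 bp from a start site, Wnt2, Wnt6 and Dkk2 were lost and 2 ligands were left, and at 3 kb Sfrp2 was gained. With the narrower peaks (below the list median in width) left out, the antagonists fell to 1 (Sfrp4, Frzb and Dkk2 were lost), distal regions to 21, proximal-only regions to 6 and the median per gene to 0. Region counts followed the window by construction. With 20 kb there were 32 distal, 14 single-end and 2 proximal-only regions and a median of 0 per gene, and with 100 kb there were 99 distal, 50 single-end, 19 proximal-only and 31 distal-only regions and a median of 2. Assigning regions to the nearest protein-coding start site left 6 proximal-only regions. Searching whole regions raised the motif shares to 20.3% (TCF/LEF), 44.1% (RUNX) and 10.2% (SOX), with 20.8%, 41.5% and 5.46% over all distal regions.

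Of the 84 values computed under an alternative, 18 moved by more than the limit set (1.5 times for counts, the interval for shares). Leaving out a replicate was not run, since each list combines the replicates. No paired analysis was possible because each end has 1 list and no test was run. Without heights, depth or replicate lists, a peak missing from 1 list cannot be told apart from one that fell just short of a call.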
